A study of Sus scrofa with 6 samples.

Results

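Fragments of 3 interferon-induced messenger RNAs, UBD, OAS1 and OAS2, were described in small-RNA sequencing lists from piglet duodenum. The lists name 201-base windows of the pig genome with a count for each. Members were chosen by position and sequence: a window was taken if it lay on chromosome 12 between 33580000 and 33583000, where windows matching UBD had been seen in these lists, or if it translated in any frame to at least 25 residues at 70% identity or more to the UBD, OAS1 or OAS2 protein. That gave 50 of 37783 windows: 23 of UBD, 20 of OAS1 and 7 of OAS2. Of these, 37 matched a protein and 13 were members by position only. The measured values that chose them were the counts, since a window appears only where it has counts and the stretch of chromosome 12 was set after counts had been seen, so the genotype values below are a description of these animals.

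The piglets were Sutai pigs, 28 days old, kept under one set of housing conditions, and they differed in genotype at position M307 of FUT1, a fucosyltransferase gene. GG piglets (512, 2134 and 2383) are labelled sensitive to Escherichia coli F18, a bacterium that causes diarrhoea and oedema disease after weaning, and AA piglets (524 and 2129) are labelled resistant. Piglet 524 was a full sib of 512 and piglet 2129 of 2134; the sib of 2383 is not analysed here. Piglet 512 was sequenced in 2 runs, which were summed, so the comparison holds 2 AA against 3 GG animals. No infection or other treatment of these animals is stated in the labels.

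UBD, also called FAT10, is a ubiquitin-like protein that ends in a free Gly-Gly and marks other proteins for breakdown by the proteasome; interferon-γ and TNF raise its expression. OAS1 and OAS2 are 2′-5′-oligoadenylate synthetases, which sense double-stranded RNA and make the short oligoadenylates that activate RNase L, an enzyme that cuts viral and cellular RNA. Interferons raise both, and OAS1 has a single OAS domain whereas OAS2 carries a duplicated one.

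The total count per library ran from 42354 (piglet 2383) to 192861 (piglet 2134), and the lists held 3998 to 19473 windows. The lowest count in every list was 5, so a window that is not listed had fewer counts or was removed, and absence from a list is not a measured 0. A smaller library has fewer windows above that minimum. Overlapping windows also differed in position between libraries, and a window under the minimum in a library is not listed there. Of the 50 member windows, 46 (92.0%) were listed in 1 library only, against 78.3% of all windows. Overlapping windows were therefore merged into regions, and the counts of a region were summed. The members fell into 12 of 24665 merged regions. The tissue label was not checked against cell-type markers, since the lists name no genes and no marker sequences were searched.

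The sequences that identify the members are given first, on the coding strand and in the genome numbering of the lists, whose build is not given in the sources used here. The first line is the end of the UBD open reading frame on chromosome 12, minus strand, 33581572 to 33581631; the capitals mark a pair of glycine codons and the stop codon, the Gly-Gly terminus by which UBD is known. The other 3 lines are the 75-base stretches of highest identity to each protein: UBD at chromosome 12, minus strand, 33581815 to 33581889 (92% of 25 residues), OAS1 at chromosome 14, minus strand, 39199998 to 39200072 (92%), and OAS2 at chromosome 14, plus strand, 39146641 to 39146715 (88%).
UBD end: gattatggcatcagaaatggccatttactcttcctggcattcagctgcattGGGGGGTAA
UBD best stretch: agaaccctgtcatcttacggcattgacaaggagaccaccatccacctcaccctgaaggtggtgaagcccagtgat
OAS1 best stretch: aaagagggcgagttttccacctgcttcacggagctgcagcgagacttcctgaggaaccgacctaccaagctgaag
OAS2 best stretch: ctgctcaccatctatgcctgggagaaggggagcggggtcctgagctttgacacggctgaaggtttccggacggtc

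UBD on chromosome 12 was one unbroken region of 1042 bases, from 33581017 to 33582058, built from 19 windows. Read on the minus strand it held 161 open codons, the stop codon at 33581572 to 33581574 and 555 bases after it. Of the 19 windows, 5 lay before the stop codon, 3 over it and 11 after it. The hexamer AATAAA, the usual polyadenylation signal, occurred 2 times on the coding strand, beginning 498 and 530 bases after the stop, and the region ended 20 bases beyond the second one. Of all 37783 windows, 21.5% hold AATAAA on one strand or the other, so the hexamer alone is common.

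The UBD region was listed in 5 of 6 libraries. Its summed count was 22 in AA piglet 2129, while AA piglet 524 had no listed window. Among the GG piglets it was 28 and 23 in the runs of 512, 201 in 2134 and 7 in 2383. Piglet 2134 stood far above every other animal, and the other GG piglets lay near the listed AA piglet, 2383 below it and 512 above it. As a share of all listed window counts, UBD took 104 per 100000 in piglet 2134 (95% Wilson interval 90.8 to 120), 17.3 (11.4 to 26.2) in 2129 and 16.5 (8.01 to 34.1) in 2383. The runs of 512 gave 29.1 (20.1 to 42.0) and 25.6 (17.0 to 38.4) per 100000. These intervals cover counting error only. The shares of 2129, 512 and 2383 overlap in their intervals, and that of 2134 lies above all of them; 2134 was also the library with the largest total and the most windows.

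**Figure D1:**
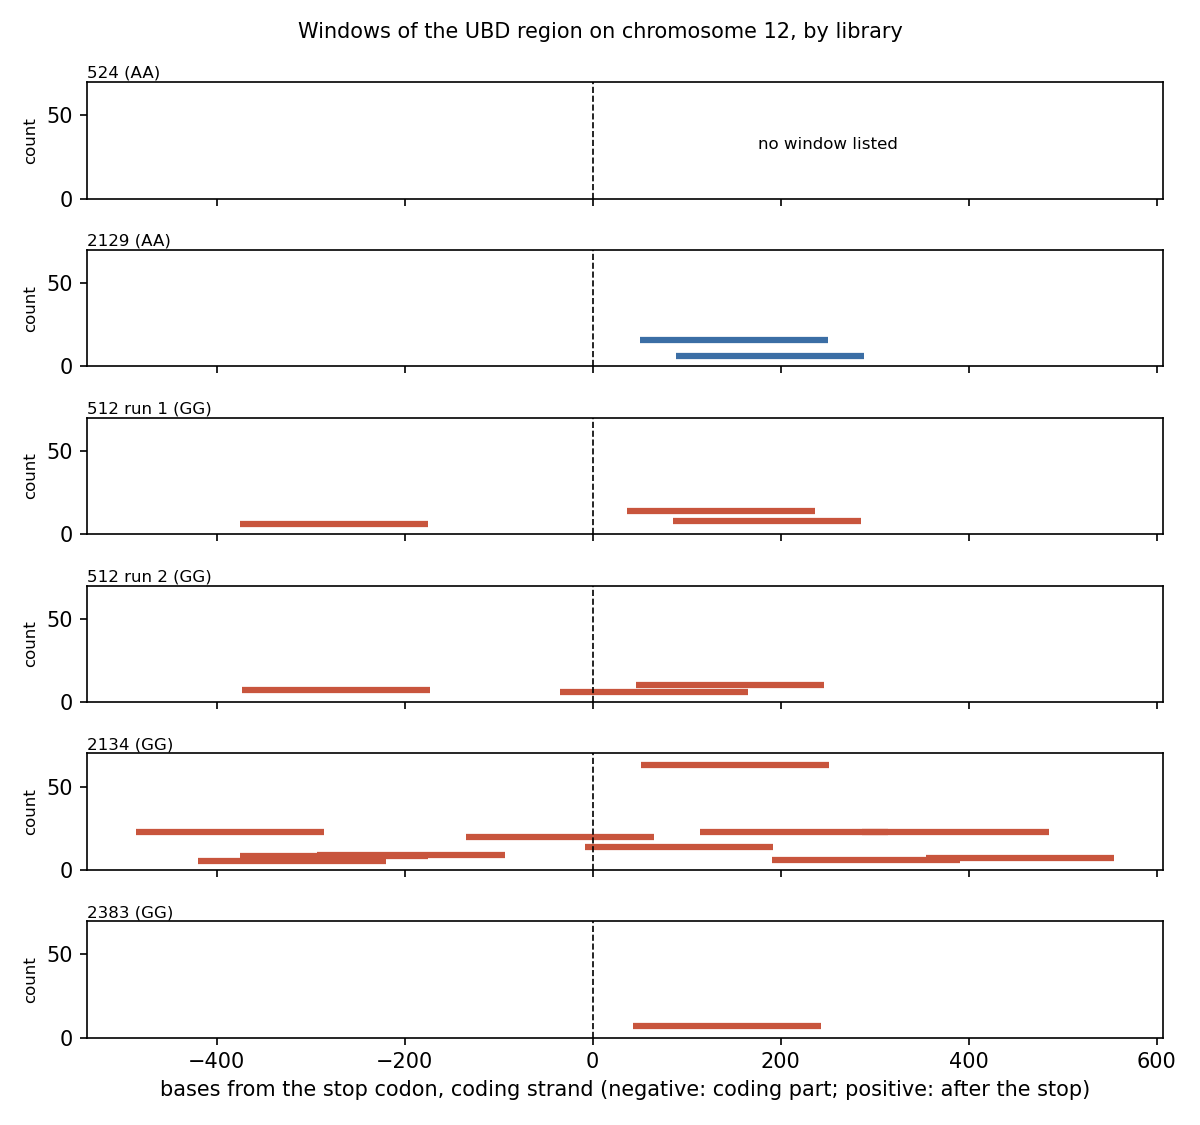
Each bar is one 201-base window of the UBD region on chromosome 12, drawn from its near to its far end in bases from the stop codon (x axis, coding strand) at the height of its listed count (y axis), in 1 panel for each library, blue for AA and red for GG. In all 5 libraries with a window, the highest one covers the same part after the stop codon, and coding windows appear only in piglets 512 and 2134.

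The highest window of the region lay at nearly the same place in every library that listed it. It began 37 to 51 bases after the stop codon and ended 237 to 251 bases after it, a spread of 14 bases over 5 libraries. Its count was 63 in piglet 2134, 16 in 2129, 14 and 10 in the runs of 512, and 7 in 2383. It held 31.3% of the region's counts in piglet 2134 and 100% in 2383, where no other window was listed. Windows before the stop codon summed to 45 in piglet 2134 and to 6 and 7 in the runs of 512, and none was listed in 2129, 2383 or 524. The part after the stop summed to 122 in 2134, 22 in 2129, 22 and 10 in 512, and 7 in 2383.

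A second copy of UBD was found on chromosome 7, plus strand, in 4 windows between 24968015 and 24968488. The RefSeq gene table, for Sscrofa11.1, places UBD on chromosome 7. Over 435 coding bases that both places cover, the copies differed at 2 bases, and over 423 bases after the stop codon at 1. Counted from 1 at the 5′ end of the chromosome 12 region on the coding strand, the coding differences were G127C and A338G, with the chromosome 12 base first, and 1 of them changes the encoded residue. The 60 bases around each show how alike the copies are, with the differing base in capitals; they lie at chromosome 12, 33581903 to 33581962 and 33581692 to 33581751 (minus strand), and at chromosome 7, 24968150 to 24968209 and 24968361 to 24968420 (plus strand).
chromosome 12, G127C: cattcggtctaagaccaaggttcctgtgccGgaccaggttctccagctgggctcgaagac
chromosome 7, G127C: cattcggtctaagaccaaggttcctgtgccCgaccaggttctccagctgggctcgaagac
chromosome 12, A338G: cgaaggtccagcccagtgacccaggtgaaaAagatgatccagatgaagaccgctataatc
chromosome 7, A338G: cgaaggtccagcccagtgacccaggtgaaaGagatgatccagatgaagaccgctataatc

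With so few differences, a read outside these bases cannot be assigned to one copy, and the split of UBD counts between chromosomes 12 and 7 is uncertain. The 4 chromosome 7 member windows, which match the protein, summed to 31 in piglet 2134 and to 5 in the second run of 512, and none was listed in the other libraries. Windows just downstream, from 24968539 to 24968963, hold the part of this copy after the stop codon and fall outside the rule, whereas the chromosome 12 sum includes that part. They summed to 47 in piglet 2134, 6 in the first run of 512 and 7 in AA piglet 2129. Coding windows of either copy were listed in GG piglets 512 and 2134 only. The part after the stop codon was also listed in AA piglet 2129 and, on chromosome 12, in GG piglet 2383.

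OAS1 matches formed 7 regions on the minus strand of chromosome 14 between 39196391 and 39205714. The first 5 of them, up to 39202577, matched successive stretches of the protein in order along the genome. The last 2 repeated the pattern 3201 bases further on: the windows of the region from 39204382 to 39204666 were identical in all 201 bases to those of the region from 39201181 to 39201465 and carried equal counts, and the window starting at 39205514 differed at 16 of 201 bases from the one starting at 39202313. Windows with identical sequence were counted once in the OAS1 sum.

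OAS1 summed to 10 counts in AA piglet 524 and was not listed in AA piglet 2129. In the GG piglets it summed to 63 and 55 in the runs of 512 and to 41 in 2134, and it was not listed in 2383. Both runs of 512 were high, and each genotype had an animal without a listed window, so the groups overlap. The order of the GG piglets was not that of UBD: scaled by library size factors, OAS1 was 66.9 in 512 and 36.4 in 2134, whereas UBD on chromosome 12 was 28.9 in 512 and 179 in 2134. The region with the highest count, from 39197618 to 39197841, had 21 and 16 counts in the runs of 512, 10 in 2134 and 5 in 524. The next, from 39199885 to 39200094, had 15 and 11 in the runs of 512 and 11 in 2134, and no counts were listed elsewhere. The region that matches the start of the protein, from 39202265 to 39202577, had 8 and 12 counts in the runs of 512 and 15 in 2134, the one region of OAS1 where 2134 exceeded each run of 512.

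OAS2 matches formed 3 regions on the plus strand of chromosome 14, between 39138471 and 39146853. The RefSeq table lists OAS1 and OAS2 as neighbours on chromosome 14. The region from 39138471 to 39138675 had 14 and 16 counts in the runs of GG piglet 512, 16 in 2134 and 8 in 2383, and was listed in neither AA piglet. The region from 39146639 to 39146853 had 10 counts in AA piglet 2129, 8 in the second run of 512, and 9 each in 2134 and 2383. The third region, from 39142027 to 39142227, was listed in piglet 2134 alone, with 5 counts. OAS2 was thus listed in every GG piglet and in 1 of the AA piglets, through a different region in that animal than the one that was highest in GG.

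Summed, OAS2 had no listed count in 524 and 10 in 2129, against 38 in 512, 30 in 2134 and 17 in 2383. Scaled by size factors, this was 9.68 in 2129 and 21.5, 26.6 and 26.5 in 512, 2134 and 2383. All GG piglets lay above the listed AA piglet, and they were closer together than for UBD or OAS1. The OAS1 and OAS2 regions are themselves related in sequence: the OAS1 region from 39197618 matched OAS1 at 84% and OAS2 at 80% of its best 25 residues, and the OAS2 region from 39138471 matched OAS2 at 84% and OAS1 at 64%. Counts near the identity limits could fall to either gene.

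**Figure D2:**
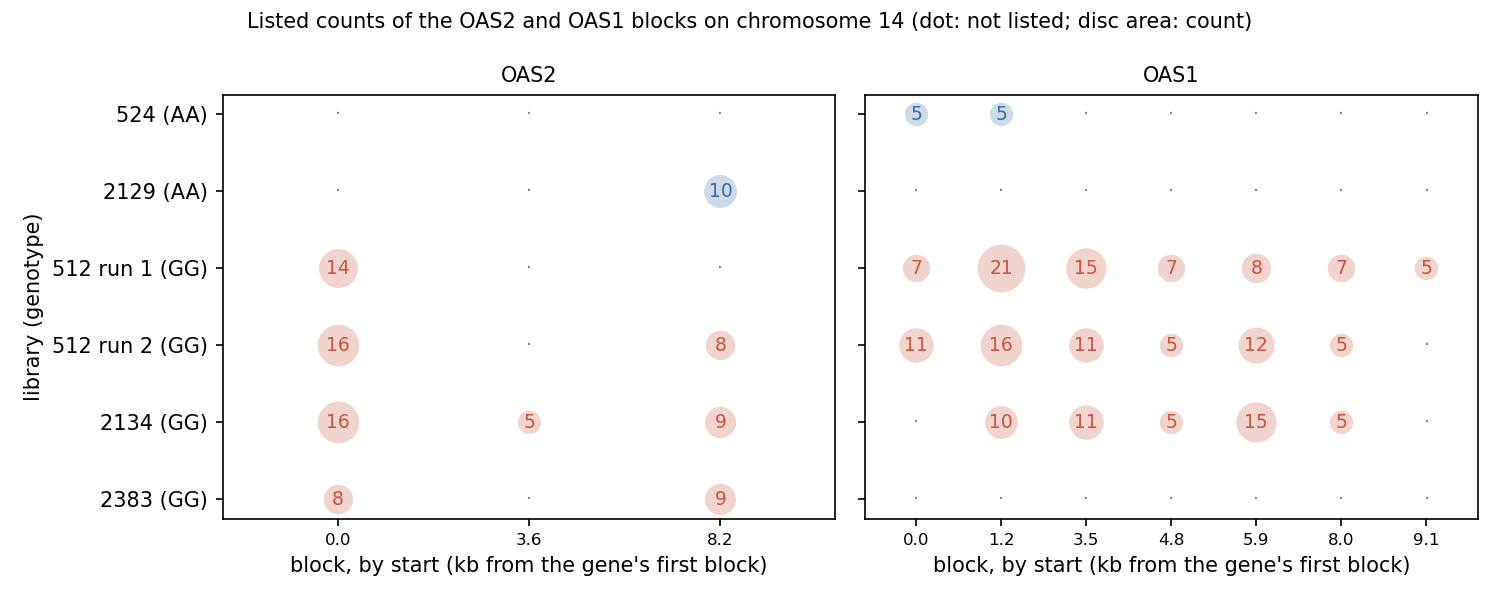
Listed counts of each OAS2 region (left) and OAS1 region (right) on chromosome 14, in order of start (x axis, distance in kb from the gene's first region) for each library (y axis), with disc area in proportion to the count and a dot where nothing was listed. The first OAS2 region is listed in all 4 GG libraries and in no AA library, and OAS1 is highest in the 2 runs of piglet 512.

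The runs of piglet 512 show how far a repeat of sequencing moves these sums. Over 4390 merged regions listed in both runs, the log2 ratio of the shares, run 2 over run 1, had a median of 0.10 and an SD of 0.41. It was -0.19 for UBD on chromosome 12, -0.10 for OAS1 and 0.87 for OAS2. UBD and OAS1 moved by less than that SD, and OAS2 by more, since its region from 39146639 was listed in the second run only.

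**Figure D3:**
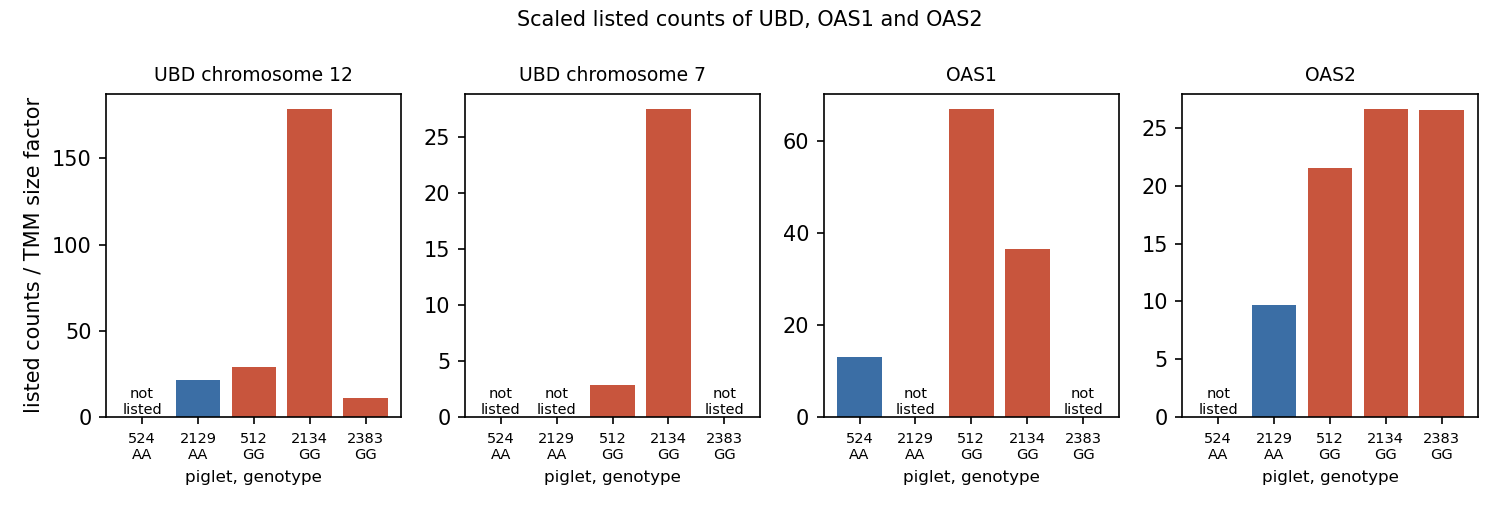
Listed counts divided by the TMM size factor (y axis, a scale of its own in each panel) for UBD on chromosomes 12 and 7, OAS1 and OAS2 in each piglet (x axis), blue for AA and red for GG. UBD is highest in piglet 2134 (179), OAS1 in 512 (66.9), and OAS2 lies between 21.5 and 26.6 in the 3 GG piglets.

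To set the genotypes side by side, a region not listed in a piglet was given 2 counts, and values were compared as log2(scaled count + 1). The scaled UBD count on chromosome 12 was then 11.97 ± 13.2 (SD, n = 2) among AA animals and 72.8 ± 92.0 (SD, n = 3) among GG animals, which is a log2 difference of 2.15 with an SE of 1.78. OAS1 was 17.6 ± 8.52 in AA and 41.9 ± 24.1 in GG, a difference of 1.11 (SE 0.76). OAS2 was 10.7 ± 4.01 in AA and 26.3 ± 3.49 in GG, a difference of 1.26 (SE 0.30). The protein-matching windows of UBD on chromosome 7 were listed in neither AA piglet, so their difference of 1.23 sets GG against assigned counts only and has no measured AA spread. Assigned counts also make up the whole value of UBD and OAS2 in piglet 524 and of OAS1 in 2129 and 2383, so the SDs and SEs above are in part not measured. OAS1 took 2 counts for each of its 6 distinct regions where none was listed, divided by the size factor. That gave 11.6 in AA piglet 2129 and 18.7 in GG piglet 2383, the second above the AA mean. With 0 counts in place of 2, the OAS1 difference was 1.86 with an SE of 2.84, and the OAS2 difference 2.98 with an SE of 1.28. With total counts in place of TMM, the OAS2 difference was 1.12 with an SE of 0.56. With TMM and 2 assigned counts, the UBD and OAS1 differences were smaller than 2 SE, and in UBD the SD of GG exceeded its mean. The median difference of all 2777 tested regions was 0.20 with TMM scaling and 0.07 with total counts, a shift of more than 0.1 in the median with the scaling alone. Above that median, UBD on chromosome 12 was higher by 1.95, OAS1 by 0.90 and OAS2 by 1.05 under TMM, and by 1.97, 0.88 and 1.05 under total counts.

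In the fit over all regions, with limma and Benjamini-Hochberg adjustment, 5 of the 12 member regions had enough counts to be tested. None of these was called at an adjusted p under 0.05, and of all 2777 tested regions 0% were called. At an unadjusted p under 0.05, 241 regions (8.68%) passed. The adjusted p in limma was 0.532 for the UBD region on chromosome 12, 0.518 for the OAS2 region from 39138471 (log2 difference 2.24), and 0.532, 0.532 and 0.610 for the OAS1 regions from 39199885, 39202265 and 39197618. A region listed in GG alone could only pass the count filter by being higher in GG, so the direction of these values is set in part by the filter. That holds for the OAS2 region from 39138471 and the OAS1 regions from 39199885 and 39202265, whose AA values are assigned counts in both piglets, so their SE and p do not rest on a measured AA level. The members' RNA was read in whole tissue, where fewer cells of a type and less RNA per cell cannot be told apart.

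**Figure D4:**
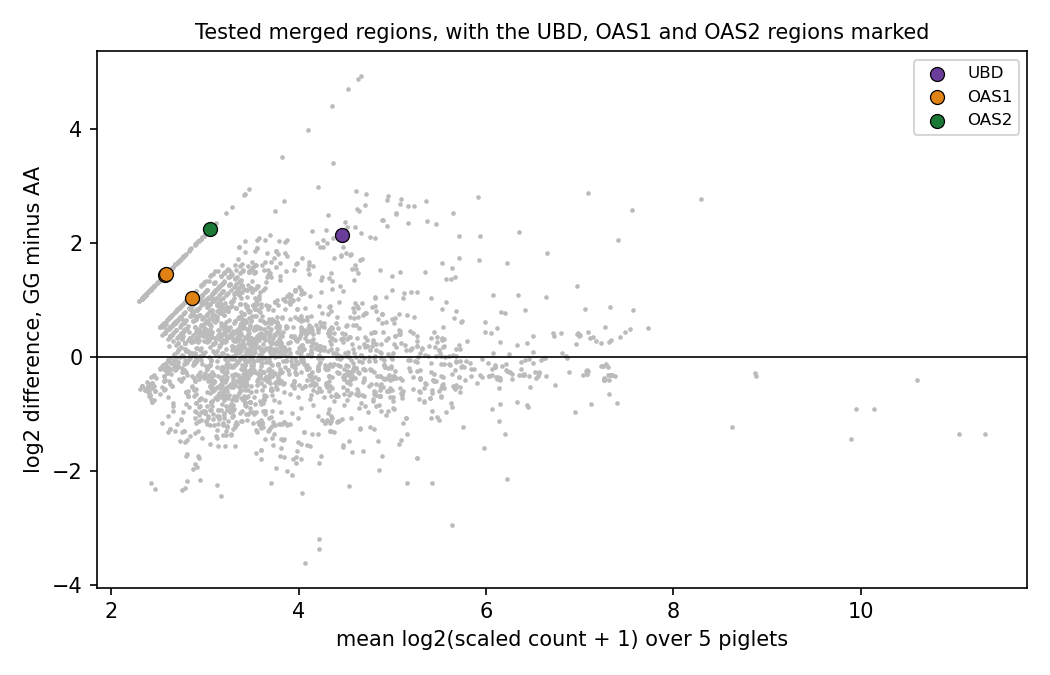
Log2 difference, GG minus AA (y axis), against the mean log2(scaled count + 1) over 5 piglets (x axis) for all 2777 tested regions (grey) and the 5 tested regions of UBD, OAS1 and OAS2 (coloured). The marked regions lie between 1.03 and 2.24, above the median of 0.20, among many grey points of like size.

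The result for UBD depended on how the sib pairs and unlisted regions were treated. Within sib pairs, log2 UBD on chromosome 12 was 3.04 higher in 512 than in 524 and 3.01 higher in 2134 than in 2129. With the full-sib pair as a block, to which piglet 2383 adds nothing, the difference was 3.03 and the limma adjusted p for the UBD region 0.0116; it was 1 of 57 regions called, all higher in GG. The value of 524 in that fit is the assigned 2 counts. With 0 counts in its place, the difference was 3.96, the limma adjusted p was 0.195 and no region was called; with 4 counts it was 2.63, with an adjusted p of 0.0316. Without the count filter the UBD region had a limma adjusted p of 0.00487, against 0.532 with it, at the same difference of 2.15. In that setting it was 1 of 88 regions called among 24665, 69 higher and 19 lower in GG. The regions added there fell below the filter, and their assigned counts enter the spread that limma shares over regions. The UBD region was also chosen with its counts known, so none of these adjusted p is support for a genotype difference. Without piglet 2134 the UBD difference was 1.06, and without piglet 524 it was 0.76. Within pairs OAS1 was higher in the GG sib by 1.46 and 1.70, and OAS2 by 1.41 and 0.93. In the OAS1 value of 1.70 (piglet 2129) and the OAS2 value of 1.41 (piglet 524), the AA sib had nothing but assigned counts. In the other values the AA sib was assigned in part. Scaled OAS1 in 524 was 13.1 as listed and 23.7 with assigned counts, and scaled OAS2 in 2129 was 9.68 and 13.6.

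The regions whose counts over the 6 libraries ran most like UBD on chromosome 12 were sought among 1583 non-mitochondrial regions listed in every piglet. The closest were chromosome 12 from 24720474 to 24721186 (Pearson r = 0.987 of log2 scaled counts), chromosome 1 from 228874076 to 228874480 (0.982), chromosome 11 from 25373717 to 25374000 (0.982), chromosome 1 from 187872785 to 187873167 (0.981) and chromosome 1 from 188101620 to 188102099 (0.977). The closest one had counts of 12 and 41 in AA piglets 524 and 2129, 32 and 33 in the runs of 512, 95 in 2134 and 16 in 2383. All 5 were highest in 2134; the 6 points include 2 runs of one animal and share library size, and the values are a description.

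No clear gap in identity lay at the limit of the rule, and the wider step came below the nearest windows outside it. Every member by protein match but one had a 25-residue stretch at 72% or more, the exception being the OAS2 window at 39142027, whose best 25 residues matched at 68% and which passed on a longer stretch. Just outside the rule were 4 windows on the minus strand of chromosome 14, from 39192149 to 39192388, which matched OAS2 at 64%. The next nearest windows, on chromosome 1, matched UBD at 52%.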

How the data were processed

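The authors deposited, for each library, a list of 201-base windows with chromosome, start, end, sequence and a whole-number count, per the file headers; no list holds a count under 5. The aligner, the genome build and how windows were made: not given in the sources used here. Windows of identical sequence at different places carry equal counts, so a read may be counted at more than one place. A record of the whole mitochondrial genome was left out.

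Windows were translated in 6 frames and matched without gaps to human UBD, OAS1 and OAS2. These query proteins were written from memory as search probes, were not checked against a database, and are not printed; reading-frame stops, chromosomes and exon order are from the lists. Overlapping windows were merged into regions. Counts were scaled by TMM (trims 30% and 5%) over regions listed in every piglet, 2 counts were given to a region not listed, and regions with at least 10 counts in at least 2 piglets were tested on log2(scaled count + 1) in limma 3.58.1 under R 4.3.3, with its trend option. SEs of gene sums are from the unmoderated linear model, and those of tested regions from the moderated one. Size factors ran from 0.641 to 1.76. No count model was fitted, since low counts are missing from the lists.

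The regions named are all regions of the 3 genes and the 5 most like UBD. The members, the gene lists and the tests were chosen with earlier results of these data known. Other interferon-induced genes were not analysed here. Labels name separate animals; 2 against 3 animals cannot give a two-sided exact permutation p under 0.1. The labels give the sib pairs; over tested regions, deviations from the group means correlated at 0.05 (524 and 512) and 0.32 (2129 and 2134), against 0.27 for 524 and 2383, which are not sibs. With 2 AA piglets their deviations mirror each other, so these values do not show sib resemblance, and the pairing rests on the labels. The fit was also run on simulated counts with known changes and no sib pairs. The outcome of that run is not given here, so it does not bear on these animals.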

Additional observations from a re-analysis of the deposited data

Results flagged for a closer look

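Counts also appeared beside the members, in regions outside the rule, some of which were in the fit over all regions. They were singled out because they hold signal next to these genes. The largest was the region of chromosome 14 from 39192149 to 39192388, between OAS2 and OAS1, with 150 counts over all libraries; its best 25 residues matched OAS2 at 64%. It was listed in every library, with 8 and 15 counts in AA piglets 524 and 2129, 32 and 29 in the runs of GG piglet 512, 42 in 2134 and 24 in 2383. Its scaled count was 12.5 ± 2.83 (SD, n = 2) among AA animals and 36.4 ± 1.61 (SD, n = 3) among GG animals. The log2 difference was 1.48 (SE 0.31), with a limma adjusted p of 0.518. The small GG spread depended on the TMM size factors. Against all listed window counts the GG piglets were further apart, with 42 of 192861 in 2134 and 24 of 42354 in 2383. It was the one region at the OAS genes with counts in all piglets.

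Just downstream of the UBD windows on chromosome 7, the region from 24968539 to 24968963 held 60 counts, 47 of them in piglet 2134, 7 in 2129 and 6 in the first run of 512. On chromosome 14, the region from 39149302 to 39149515 held 48 counts, in every piglet but 2129. The region from 39148771 to 39149036 held 23, in 512 and 2134 only, and that from 39190892 to 39191092 held 12, in 524 and the second run of 512.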

How the results depend on the processing

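Under every alternative run, including each left-out piglet, the GG minus AA differences of UBD on chromosome 12, OAS1 and OAS2 stayed above 0. The members were chosen with counts known. Most OAS1 regions and the OAS2 region from 39138471 were listed in no AA piglet, so the constant sign is in part set in advance. The sizes of the differences followed the count given to unlisted regions. With 0 and 4 counts in place of 2, UBD was 3.08 and 1.76, OAS1 1.86 and 0.74, and OAS2 2.98 and 0.70; the SE of OAS1 was 2.84 and 0.38. Leaving out each piglet in turn gave 0.76 to 3.48 for UBD, 0.65 to 1.65 for OAS1 and 0.82 to 1.63 for OAS2; where that left a lone AA animal, it was assumed to vary like the others. With the full-sib pair as replicate block, which the labels give, UBD was 3.03, OAS1 1.58 and OAS2 1.17. Chosen after seeing the data, the block with 0 counts for unlisted regions gave 3.74 for OAS1 and 2.93 for OAS2, and with 4 counts 0.57 for OAS2. The number of regions called was 0, but 47 with total counts (32 higher and 15 lower in GG), 57 with the replicate block, 26 with the block and 4 counts, 88 without a count filter, and 0 to 4 when a piglet was left out (2 without 2129, 4 without 2134). The cause was not tested. No OAS2 window reached 90% identity, so that value could not be given, and the planned count models (edgeR and DESeq2) were not run because low counts are missing from the lists. How far depth limits these genes was not tested; the smallest totals were those of piglets 2383 and 524.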
